A study of Mus musculus with 6 samples.

Results

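Antimicrobial proteins secreted by the lining of the colon were followed here as 10 genes, out of 46078 gene rows in the count table. The 10, chosen with earlier results of these data known, were Reg3b, Reg3g, Reg4, Itln1, Retnlb, Ang4, Pla2g2a, Lyz1, Lypd8 and Lcn2. Of these, 9 were matched by their symbol in the authors' deposited table and Lcn2 by its Ensembl ID. RNA came from the epithelial fraction of mouse colon, the cells that an EDTA and DTT wash releases, in 3 wild type libraries and 3 libraries labelled Lingo2-/-, called mutant here. Lingo2 encodes a membrane protein with leucine-rich repeats and an immunoglobulin domain. All mice were 2 months old and unchallenged. The sources used here do not give strain, sex, housing or the way the allele was made, nor whether each library is 1 animal. P-values therefore measure library-to-library spread alone, and that spread may be technical.

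The gut epithelium keeps bacteria away from its surface with mucus and with secreted proteins that bind, lyse or starve them. Absorptive colonocytes, goblet cells and deep crypt secretory cells each release a part of this set, and in the small intestine Paneth cells release another part. Lectins bind sugars or peptidoglycan on bacteria, lysozyme cuts peptidoglycan, the phospholipase attacks membrane lipids, and a lipocalin withholds iron. Several of these genes are known to be induced by microbial signals, by interleukin 22 or by the cytokines of the type 2 response.

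Wild type libraries held 25010618 to 28029583 reads on genes and mutant libraries 7060769 to 13047682, which measures low genes less precisely in the mutant group. Levels are given as CPM, counts per 1e+06 reads after TMM scaling, which compares libraries on the bulk of their genes. A count of 0 allows up to 3 reads, or 0.112 to 0.138 CPM in a wild type and 0.207 to 0.374 CPM in a mutant library. Such limits cover counting error only. The mitochondrial share of reads was 45.3% to 48.4% (wild type) and 35.7% to 39.8% (mutant). Ribosomal RNA-like genes took 1.27% to 1.59% and 1.69% to 3.51%, with mutant replicates 2 and 3 highest. Reads on no feature were 18.5% to 22.1% and 23.6% to 27.6%. Leaving out mitochondrial and rRNA-like genes changed no call in the set, and the part of depth and RNA quality in the results was not tested. Lingo2 had 0, 7 and 0 reads in wild type and 1, 1 and 0 in mutant libraries, too few to check the labels. In bulk RNA, fewer cells of a type and less RNA per cell cannot be told apart. Of the 12 epithelial identity markers, all tested, none passed (median log2 fold change 0.05), and their sum was 5351 to 6332 CPM (wild type) and 5608 to 6475 CPM (mutant).

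The set split by genotype into genes that stood higher in every mutant library and genes whose groups overlapped. The intelectin Itln1 and the phospholipase Pla2g2a rose, by 8.38-fold and 3.21-fold. The resistin-like Retnlb, the ribonuclease Ang4 and the lectin Reg4 were also higher in 3 of 3 mutant libraries than in any wild type library, but they varied widely between libraries and did not pass the test. Lyz1, Reg3b, Reg3g and Lypd8 overlapped between genotypes, and Lcn2 was near the floor in all 6 libraries. A gene was called where edgeR's quasi-likelihood test gave an adjusted p (Benjamini-Hochberg) under 0.05. This held for 2 of the 9 tested genes of the set, both higher, against 2.57% of all 16757 tested genes in either direction, 1.04% higher and 1.52% lower. Groups did not overlap for 5 of the 9, all 5 higher in the mutant, against 24.1% of tested genes in either direction and 12.3% higher.

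**Figure D1:**
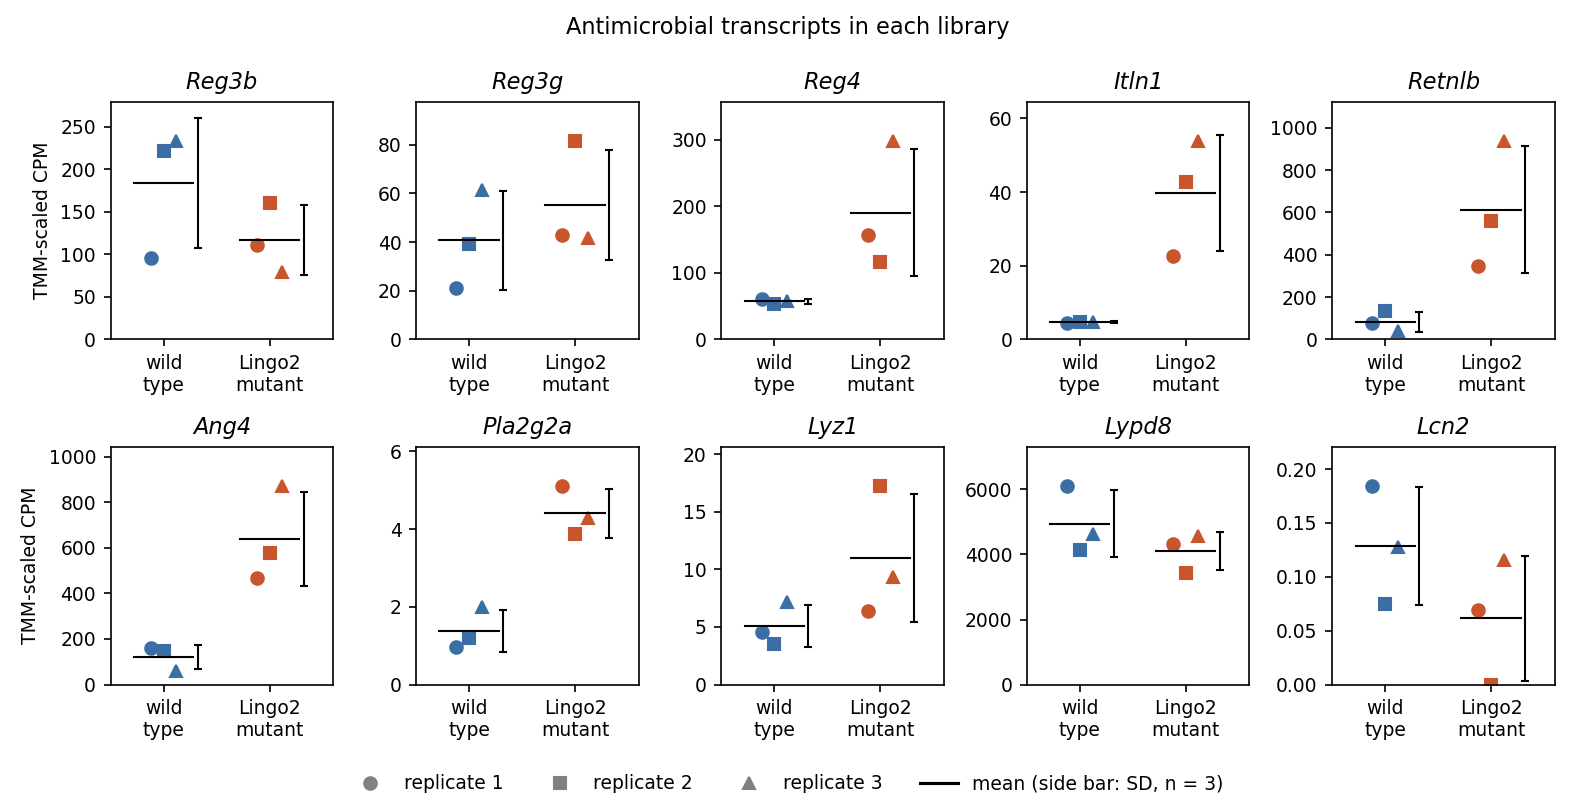
Each panel plots the TMM-scaled CPM of 1 gene in the 3 wild type (blue) and 3 Lingo2 mutant (orange) libraries on a linear axis from 0, with the mean as a line and the SD as a side bar (n = 3). Reg4, Itln1, Retnlb, Ang4 and Pla2g2a separate the genotypes, while the other 5 panels overlap.

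The sequences just before the transcription start are shown for 5 lectin and ribonuclease genes because Ang4, Reg4 and Itln1 stood higher in every mutant library and the related pair Reg3b and Reg3g did not. They come from the RefSeq table of build GRCm38.p6, where 8 of the 10 genes had a window, while Retnlb and Pla2g2a had none. Each run ends at the base before the RefSeq start and is written 5′ to 3′ on the gene's strand. Capitals mark matches, on either strand, to TATAAA, the TATA box, and to TTCNNNGAA, the spacing of STAT sites that STAT3 binds. The Reg3b run is shortened to leave out an annotated upstream exon, and GENCODE places its last 24 bases in the first exon of another Reg3b transcript.
Reg3b (chr6:78370707-78370884, plus strand): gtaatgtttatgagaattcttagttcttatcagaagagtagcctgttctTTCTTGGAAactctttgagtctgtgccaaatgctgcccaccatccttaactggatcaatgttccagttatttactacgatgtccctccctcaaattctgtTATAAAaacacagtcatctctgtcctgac
Reg3g (chr6:78468875-78469124, minus strand): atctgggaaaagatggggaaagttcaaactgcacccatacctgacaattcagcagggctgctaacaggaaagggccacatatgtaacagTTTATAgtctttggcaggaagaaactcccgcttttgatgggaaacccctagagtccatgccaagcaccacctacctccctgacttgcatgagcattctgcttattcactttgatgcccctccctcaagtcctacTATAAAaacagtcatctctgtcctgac
Ang4 (chr14:51773591-51773840, minus strand): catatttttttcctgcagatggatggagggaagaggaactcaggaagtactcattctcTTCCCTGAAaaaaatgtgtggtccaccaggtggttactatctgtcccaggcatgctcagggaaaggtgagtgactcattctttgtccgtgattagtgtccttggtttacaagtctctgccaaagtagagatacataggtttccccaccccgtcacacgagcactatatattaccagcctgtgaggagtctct
Reg4 (chr3:98221906-98222155, plus strand): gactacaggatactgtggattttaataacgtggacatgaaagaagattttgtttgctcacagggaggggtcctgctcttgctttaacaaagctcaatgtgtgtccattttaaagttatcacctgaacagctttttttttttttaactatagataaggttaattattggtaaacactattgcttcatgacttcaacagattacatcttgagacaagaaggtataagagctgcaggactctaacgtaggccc
Itln1 (chr1:171535295-171535544, minus strand): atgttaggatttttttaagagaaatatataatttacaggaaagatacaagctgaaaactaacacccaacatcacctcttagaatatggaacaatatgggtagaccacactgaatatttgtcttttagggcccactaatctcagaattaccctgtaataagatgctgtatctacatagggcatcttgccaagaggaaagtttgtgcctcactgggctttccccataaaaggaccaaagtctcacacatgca
The match to TATAAA began 29 bases before the start in Reg3b, and 27 and 161 bases before it in Reg3g. Of 32851 windows of 250 bases before a start, 12.4% held this motif. TTCNNNGAA matched once in Reg3b, 129 bases before the start, and once in Ang4, 192 bases before it, against 7.02% of windows. The STAT6 site, with 1 more base between the same arms, matched in none of the 5 runs and in 5.85% of all windows. These are matches of letters in a short window and no measure of binding. The windows of Reg3b and Reg3g were 70.0% identical over 247 aligned bases and shared the last 20 bases before the start.

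Reg3b and Reg3g encode C-type lectins that are secreted onto the epithelium, of which REG3G is known to bind and kill Gram-positive bacteria. Both lie on chromosome 6 (GRCm38), Reg3b at 78370657 to 78373466 on the plus strand and Reg3g at 78466269 to 78468872 on the minus strand. Their coding sequences were 76.4% identical over 525 aligned bases, and the first 90 bases differed at 18 positions, here in capitals.
Reg3b: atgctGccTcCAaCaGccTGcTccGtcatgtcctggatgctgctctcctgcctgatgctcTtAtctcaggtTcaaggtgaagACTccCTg
Reg3g: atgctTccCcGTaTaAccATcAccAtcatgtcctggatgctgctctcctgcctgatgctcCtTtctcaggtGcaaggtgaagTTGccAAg
No window of 75 bases or of 50 bases in the longest transcript of either gene occurred in a transcript of another gene, so reads of that length could be told apart.

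Reg3b stood at 95.5, 222 and 233 CPM in wild type replicates 1, 2 and 3 and at 111, 161 and 79.0 CPM in mutant replicates 1, 2 and 3. Wild type replicate 1 was low and lay among the mutant values. The means were 184 ± 76.5 and 117 ± 41.2 CPM (SD, n = 3), with a log2 fold change of −0.65 ± 0.45 (SE, edgeR adjusted p = 0.508). Reg3g, at 21.1, 39.4 and 61.5 CPM in wild type and 42.8, 81.4 and 41.6 CPM in mutant libraries, also overlapped. Its log2 fold change was 0.43 ± 0.502 (edgeR adjusted p = 0.698) and ranged from 0.046 to 0.85 over 15 alternative settings. Neither lectin passed under any of those settings. The fitted differences of this pair were within 1.5 standard errors of 0.

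Reg4 encodes a C-type lectin-like protein known as a marker of deep crypt secretory cells, which lie beside stem cells at the base of colon crypts. The gene lies on chromosome 3 (98222156 to 98236748, plus strand) and was measured at 60.7, 52.8 and 58.1 CPM in wild type replicates 1 to 3. The mutant libraries held 158, 116 and 298 CPM. All 3 exceeded every wild type value, and replicate 3 was the highest. The means were 57.2 ± 3.99 and 191 ± 95.4 CPM (3.33-fold). The log2 fold change of 1.74 ± 0.38 did not pass (edgeR adjusted p = 0.101). It passed without mutant replicate 2 (1.98, edgeR adjusted p = 0.0253) or without mutant replicate 3 (1.25, edgeR adjusted p = 0.00239).

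Itln1 encodes intelectin 1, a lectin that binds microbial sugars and is made by goblet and Paneth cells. This gene on chromosome 1 (171518122 to 171535294, minus strand) had the largest fitted fold of the set with all 6 libraries, within its error of that of Retnlb, which was the larger without wild type replicate 2. Its level was 4.37, 4.81 and 4.86 CPM in wild type and 22.8, 42.8 and 53.8 CPM in mutant replicates 1, 2 and 3. The wild type libraries were nearly alike, and the lowest mutant library was far above them. From 4.68 ± 0.269 to 39.8 ± 15.7 CPM, the rise was 3.07 ± 0.34 on the log2 scale (edgeR adjusted p = 0.0118). The direction held with any 1 library left out, at 2.78 to 3.36, but leaving out wild type replicate 1 (edgeR adjusted p = 0.0720) or 2 (edgeR adjusted p = 0.0644) ended the call.

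Retnlb encodes RELM-beta, a goblet cell protein known to damage bacterial membranes and to be induced in type 2 responses. On chromosome 16 (48816856 to 48818892, plus strand), it had 75.9, 133 and 37.5 CPM in wild type and 344, 559 and 936 CPM in mutant replicates 1, 2 and 3. The lowest mutant library was above the highest wild type library, yet the wild type values alone spanned 3.53-fold. The means of 82.0 ± 47.8 and 613 ± 299 CPM gave a log2 fold change of 2.90 ± 0.65 (edgeR adjusted p = 0.113). No removal of a single library brought Retnlb past the threshold, and its log2 fold change lay between 2.46 and 3.43.

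Ang4, on chromosome 14 (51763878 to 51773590, minus strand), encodes a ribonuclease of the angiogenin family that kills bacteria and is released by Paneth and goblet cells. Levels were 159, 145 and 60.4 CPM in wild type and 468, 578 and 870 CPM in mutant replicates 1, 2 and 3. Wild type replicate 3 stood below the others of its group, and mutant replicate 3 above. The log2 fold change of 2.39 ± 0.47 between means of 122 ± 53.5 and 639 ± 208 CPM did not pass (edgeR adjusted p = 0.0818), and did so without wild type replicate 3 (2.07, edgeR adjusted p = 0.00470). Its paralogs Ang2, Ang5 and Ang6 had no read in any library, and 0.787% of 75-base windows of Ang4 occurred in Ang5. Ang itself was at 10.6 ± 1.01 and 14.2 ± 0.843 CPM (log2 fold change 0.42 ± 0.12) and did not pass. Rnase4, another secreted ribonuclease, was at 127 ± 15.9 and 126 ± 8.76 CPM (−0.02 ± 0.11).

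Pla2g2a encodes a secreted phospholipase A2 that breaks down bacterial membrane lipids. GENCODE annotates the gene on chromosome 4 (138831857 to 138835186, plus strand) as a polymorphic pseudogene, a class for genes that are intact in some strains and disrupted in the reference strain. Read counts were low, at 21, 32 and 47 in wild type and 74, 31 and 37 in the shallower mutant libraries. Scaled to library size these were 0.966, 1.19 and 2.00 CPM against 5.10, 3.86 and 4.28 CPM. Every mutant value exceeded every wild type value, and the mutant libraries were closer to each other than for any other gene of the set that separated. Pla2g2a rose by 1.68 ± 0.28 on the log2 scale (edgeR adjusted p = 0.00883) and was the 1 gene called whichever library was left out, at 1.49 to 2.03. Strain is not stated for either group, and its part in this difference was not tested. The locus overlaps Pla2g5 on the opposite strand, and the sources used here do not give the strand setting of the counting. Pla2g5 stood at 2.84 ± 0.971 and 4.76 ± 0.475 CPM (log2 fold change 0.76 ± 0.25, edgeR adjusted p = 0.133), and reads from the shared stretch could not be assigned to either gene here.

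Lyz1 encodes the lysozyme of Paneth cells and Lyz2 that of macrophages. The coding sequences were 95.1% identical over 447 bases, and the opening 90 bases, with the 7 differing positions in capitals, show how few bases separate their reads.
Lyz1: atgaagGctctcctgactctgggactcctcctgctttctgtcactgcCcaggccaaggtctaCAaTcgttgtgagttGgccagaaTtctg
Lyz2: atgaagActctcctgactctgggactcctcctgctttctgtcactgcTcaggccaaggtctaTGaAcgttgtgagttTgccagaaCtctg
Of the 75-base windows in Lyz1, 6.22% also occurred in Lyz2, and 16.1% of 50-base windows did. The count of Lyz1 is therefore uncertain, and these shares do not bound its error. Lyz1 (chromosome 10, 117287797 to 117292868, minus strand) stood at 4.55, 3.54 and 7.16 CPM in wild type and 6.41, 17.2 and 9.37 CPM in mutant replicates 1, 2 and 3. Mutant replicate 1 lay below wild type replicate 3, and mutant replicate 2 was the highest. The log2 fold change was 1.08 ± 0.43 (edgeR adjusted p = 0.253). Lyz2 was at 55.3 ± 5.77 and 55.4 ± 28.2 CPM (−0.01 ± 0.36), with mutant replicate 2 again highest at 705 reads in a library of 7060769.

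Lypd8 encodes a GPI-anchored protein of surface colonocytes that is shed into the lumen and binds bacterial flagella. It was by far the most abundant gene of the set. The gene on chromosome 11 (58379043 to 58390728, plus strand) reached 6093, 4137 and 4619 CPM in wild type and 4308, 3437 and 4580 CPM in mutant replicates 1, 2 and 3. Mutant replicates 1 and 3 lay within the wild type range and replicate 2 below it. The log2 fold change was −0.27 ± 0.19 (edgeR adjusted p = 0.471). Lcn2, on chromosome 2 (32384633 to 32388252, minus strand), encodes lipocalin 2, which binds bacterial siderophores and marks inflammation in gut tissue. It had 4, 2 and 3 reads in wild type and 1, 0 and 1 reads in mutant libraries and did not pass the filter on low counts. Pooled by genotype this was 0.125 CPM (95% exact Poisson interval 0.0571 to 0.237) and 0.0642 CPM (0.00777 to 0.232). A difference in Lcn2 was not detectable at this depth.

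**Figure D2:**
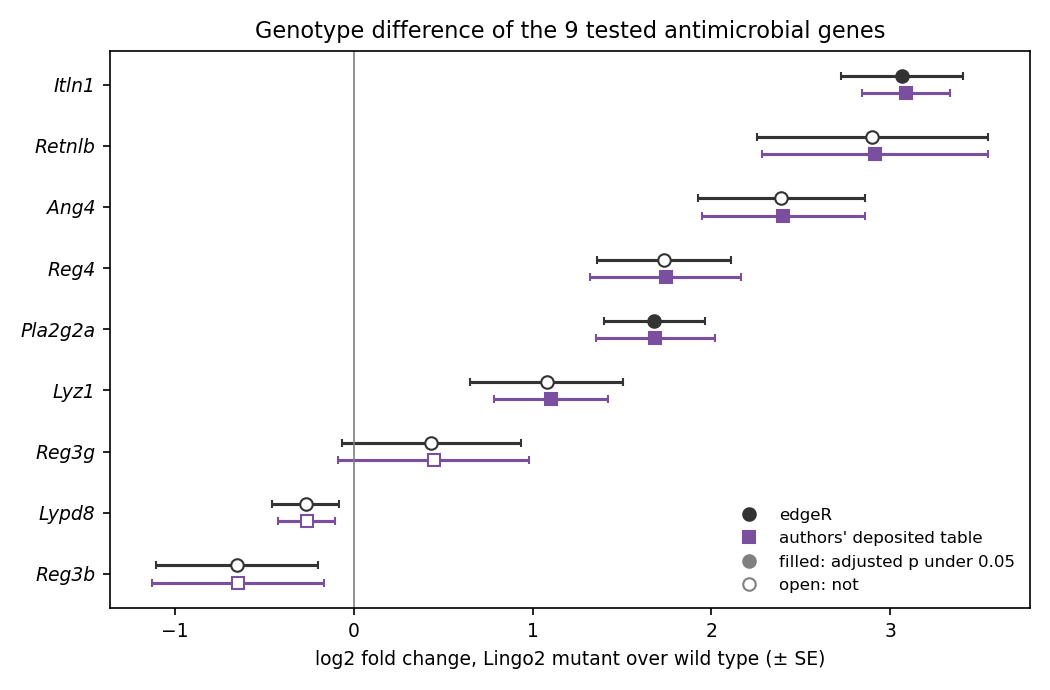
Log2 fold changes of the 9 tested genes, mutant over wild type, with standard errors, from edgeR (circles) and from the authors' deposited table (squares), filled where the adjusted p was under 0.05. The values of each gene nearly coincide, while 2 circles and 6 squares are filled.

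Which genes of the set counted as changed differed between the test methods, and the reason was not tested. The authors' deposited table, made with DESeq2 per the submitters' processing notes, called 6 of its 9 listed members of the set, all 6 higher, against 4.71% of its 14338 genes in either direction, 1.90% higher and 2.80% lower. Retnlb had a log2 fold change of 2.91 ± 0.63 (adjusted p = 0.000327) in the authors' deposited table. For Ang4 the authors' deposited table gave 2.40 ± 0.46 (adjusted p = 1.62e-05), and for Reg4 1.74 ± 0.42 (adjusted p = 0.00224). Lyz1 was at 1.10 ± 0.32 (adjusted p = 0.0164) in the authors' deposited table, although its groups overlapped. Itln1 and Pla2g2a were called there too. The fitted sizes were nearly the same as edgeR's. In edgeR, dispersions estimated without the robust option, which treats outlying genes separately, called Reg4, Retnlb and Ang4 as well, as did limma voom with sample weights.

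**Figure D3:**
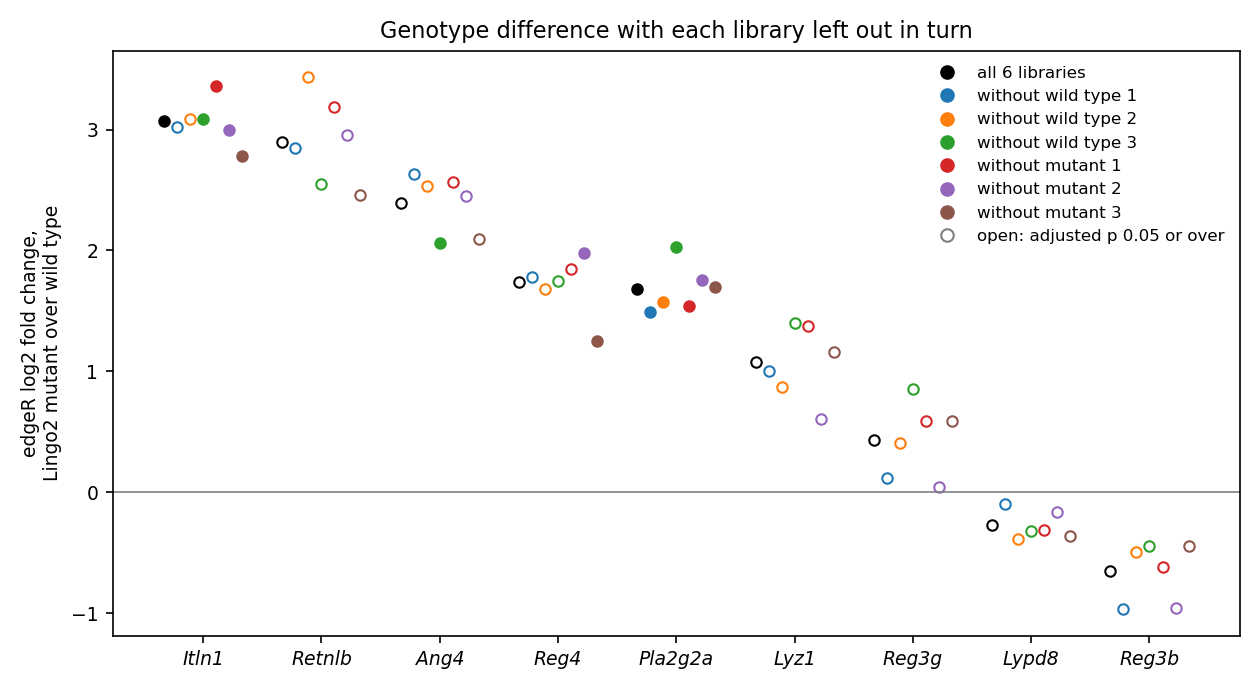
Log2 fold changes by edgeR for all 6 libraries (black) and with each library left out in turn (colours), filled where the adjusted p was under 0.05. Pla2g2a is filled throughout, Itln1 loses its call without wild type 1 or 2, and no gene crosses 0.

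The genes of the set also differed in how evenly they were expressed within a genotype. Itln1 and Reg4 were the steadiest in wild type, where the highest library exceeded the lowest 1.11-fold and 1.15-fold, and in the mutant group this ratio was 2.36 and 2.57. On the log2 scale the SD of Itln1 was 0.08 in wild type and 0.64 in mutant libraries. Genes of like level, within 1 log2 CPM, had median SDs of 0.12 and 0.14. For Reg4 the SDs were 0.10 and 0.69, beside medians of 0.11 and 0.10. Reg3b, Reg3g, Retnlb and Ang4 were uneven in both genotypes, with SDs of 0.72 to 0.91 (wild type) and 0.45 to 0.72 (mutant). All 4 had the lower SD in the mutant group, as did Pla2g2a (0.499 and 0.20) and Lypd8 (0.29 and 0.22). Lyz1 had 0.502 in wild type and 0.71 in the mutant group. These spreads rest on 3 libraries each and were not tested.

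Compared per kilobase of merged exons, Lypd8 led in both genotypes, at 3855 ± 794 CPM per kb in wild type and 3199 ± 465 in mutant libraries. In wild type Ang4 (172 ± 75.5), Reg3b (161 ± 66.9) and Retnlb (118 ± 68.7 CPM per kb) followed with ranges that overlapped each other. By the length of the longest transcript in place of merged exons, Reg3b was at 234 CPM per kb and above Ang4. Reg4 came next at 56.0 ± 3.91 CPM per kb, and its range of 51.8 to 59.4 overlapped that of Retnlb, which was 53.9 to 190. Reg3g was lower at 19.2 ± 9.57. Itln1 (4.10 ± 0.235) and Lyz1 (4.03 ± 1.48 CPM per kb) overlapped, and Pla2g2a was at 1.49 ± 0.587. In mutant libraries the order after Lypd8 was Ang4 (901 ± 293), Retnlb (881 ± 430), Reg4 (187 ± 93.5), Reg3b (102 ± 36.1), Itln1 (34.9 ± 13.8), Reg3g (26.2 ± 10.7), Lyz1 (8.70 ± 4.41) and Pla2g2a (4.76 ± 0.679 CPM per kb). Of these neighbours, Retnlb and Reg4 did not overlap, nor did Reg3b and Itln1, nor Reg3g and Lyz1. Reg3g is long by its merged exons, 2114 bases, while the shorter of its 2 transcripts has 771 bases, so its level per kilobase may be understated. Over the whole set, Lypd8 held most reads. The other 9 genes summed to 423 to 602 CPM in wild type and to 1157 to 2292 CPM in the mutant group, with no test. Most of the mutant sum was Ang4 (639 CPM on average) and Retnlb (613 CPM), and neither passed in edgeR. Reg3b, the largest of the 9 in wild type, had a lower mean in the mutant group (184 and 117 CPM).

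**Figure D4:**
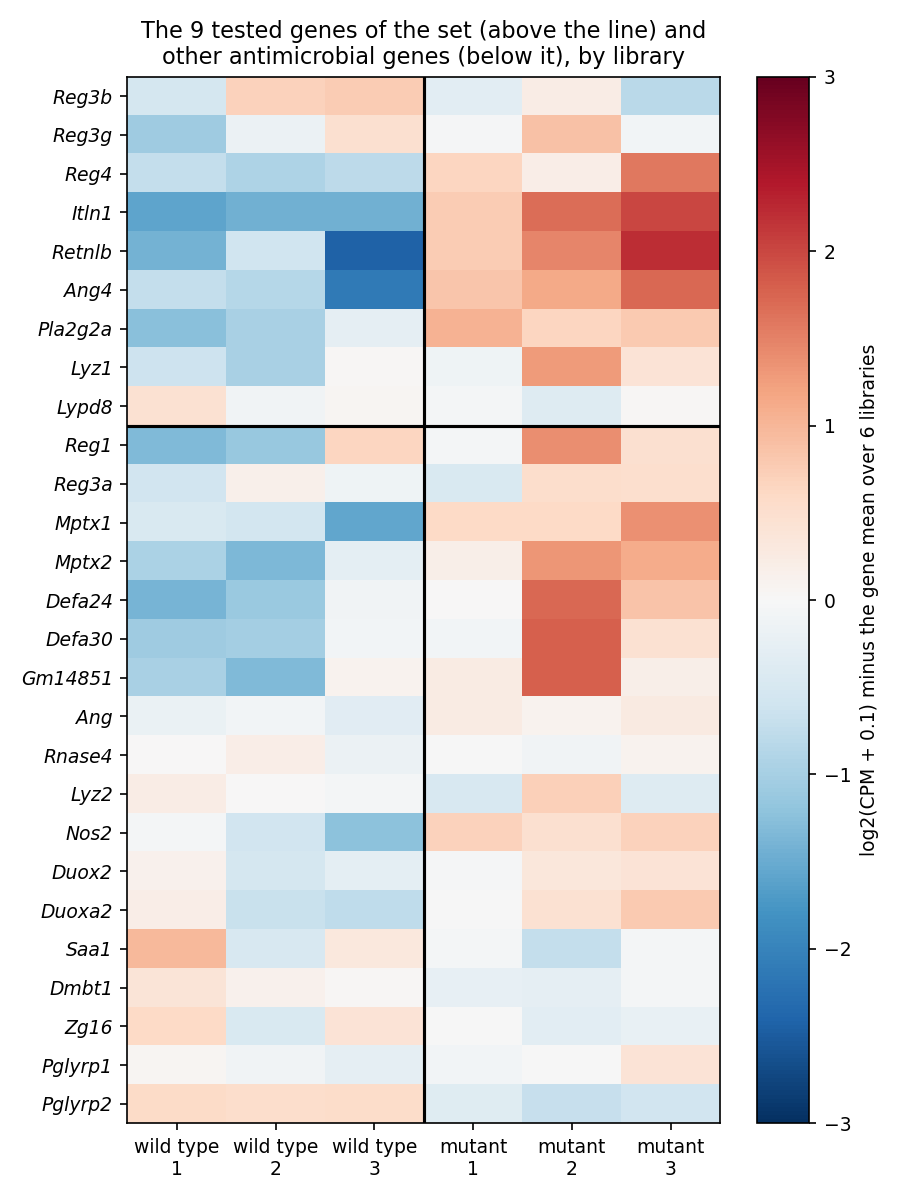
Colour shows log2(CPM + 0.1) minus the gene's mean over the 6 libraries, for the 9 tested genes of the set above the line and 18 other antimicrobial genes below it, in columns by library. Itln1, Retnlb, Ang4, Reg4 and Mptx1 are reddest in mutant replicate 3, whereas Lyz1, Reg3g and the defensins Defa24 and Defa30 are reddest in mutant replicate 2.

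Among the genes with a similar pattern over the 6 libraries, likeness was measured as the root mean square difference of log2 CPM after centring each gene, over 12968 genes outside the set. Within the set Retnlb and Ang4 were the most alike pair, at 0.40 log2 units. Nearest to Ang4 were Mptx1 (0.40), a mucosal pentraxin, and Clps (0.51), which encodes colipase. Reg4 had Gm15564 (0.17) and Clps (0.18) nearest, and Retnlb had Pnliprp2 (0.63) among its nearest. Plcd3 (0.18) and Rnu12 (0.25) were nearest to Pla2g2a, and Hspa1a (0.62) and Gm22973 (0.62) to Itln1. For Lyz1 they were Mme (0.0996) and Slc2a2 (0.16), for Reg3g Nr6a1os (0.15) and Soat2 (0.19), for Reg3b H2-Bl (0.20) and Cyp3a25 (0.23), and for Lypd8 Hk1 (0.033) and Dnajb9 (0.046). With 6 libraries and this many genes, close patterns are easily found.

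Other antimicrobial genes were balanced between the directions. Of 44 listed, 30 were tested, none rose and 1 fell, beside 1.04% of all tested genes higher and 1.52% lower. The median log2 fold change was −0.01, beside 0.00098 over all tested genes. The gene that fell was Pglyrp2, a peptidoglycan-cleaving amidase, from 5.37 to 5.57 CPM in wild type to 2.24 to 2.83 CPM in mutant libraries (−1.10 ± 0.19, edgeR adjusted p = 0.0106). Mptx1 was at 1162, 1089 and 546 CPM in the wild type and 2408, 2436 and 4147 CPM in the mutant replicates (log2 fold change 1.68 ± 0.345, edgeR adjusted p = 0.0558). Its Paneth cell relative Mptx2 was far lower, at 0.268 ± 0.142 and 1.13 ± 0.455 CPM (1.97 ± 0.51, edgeR adjusted p = 0.0605). The Reg family members Reg1 (1.02 ± 0.74) and Reg3a (0.36 ± 0.36) overlapped between genotypes, and Reg2 and Reg3d had 2 and 3 reads in all. Retnla, the paralog of Retnlb, was at 1.66 ± 0.516 and 1.79 ± 0.257 CPM.

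Genes of the signals known to induce this set mostly did not pass, beside 1.04% of all tested genes called higher and 1.52% lower. In the list of the interleukin 22 and STAT3 axis none of 15 tested genes passed (median −0.23). The receptor chain Il22ra1 was at 49.4 and 48.6 CPM on average, and the cytokine Il22 had 1 read in all. Stat3, its transcription factor, was at −0.28 ± 0.09 (edgeR adjusted p = 0.136), and Il22ra2 at −1.41 ± 0.51 (edgeR adjusted p = 0.163). Of 21 tested genes of microbe sensing and NF-kappaB, 1 fell, the inhibitor Nfkbia (−0.42 ± 0.09), and the median was −0.04. In the type 2 axis 1 of 12 tested genes rose, the gasdermin Gsdmc3, from 42.2 ± 14.6 to 102 ± 3.39 CPM (1.27 ± 0.23, edgeR adjusted p = 0.0428), with a list median of 0.05. Clca1 (1.13 ± 0.33, edgeR adjusted p = 0.129) and Gsdmc2 (1.34 ± 0.303, edgeR adjusted p = 0.0905), known targets of interleukin 13, were higher in 3 of 3 mutant libraries and did not pass. The list's sum was 2000 to 3672 CPM (wild type) and 4073 to 7132 CPM (mutant). Most of it was Clca1, also in the goblet list below, at 1420 to 2807 CPM and 3098 to 5913 CPM. Of the 12 tested genes 6 had a log2 fold change above 0. The part of this axis in the levels of Retnlb and Itln1 was not tested. The cytokines Il13, Il4, Il5 and Il25 had 4, 22, 2 and 8 reads in all 6 libraries together. Cells outside the epithelial fraction were not measured, so these counts and that of Il22 do not show whether the cytokines were present in the tissue.

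Some markers of the secretory cells known to make these proteins were higher too. Of all tested genes 1.04% were called higher and 1.52% lower. Goblet and deep crypt secretory genes rose in 6 of 19 tested members and fell in none (median 0.36). Among the 6 were Spdef (0.84 ± 0.10), Atoh1 (0.90 ± 0.11), Capn9 (0.93 ± 0.13) and Spink4 (1.01 ± 0.16). The sums that follow are over the whole goblet list. Their summed level was 14037 to 16843 CPM (wild type) and 16920 to 23503 CPM (mutant), with no listed gene at 0. In this sum Clca1 held 1927 and 4217 CPM on average and Fcgbp 2753 and 4552 CPM, and neither passed. Of the 19 log2 fold changes 17 were above 0. Those of Tff3 (−0.32 ± 0.23) and Zg16 (−0.42 ± 0.24) were below 0 and did not pass. Muc2, the main mucin of goblet cells, was at 7243 ± 459 and 7485 ± 866 CPM (0.05 ± 0.16). Paneth cell genes rose in 2 of 9 tested members, Sox9 (0.75 ± 0.13) and Pnliprp2 (4.02 ± 0.46), neither of which is limited to Paneth cells, with a median of 1.55 and a summed level of 102 to 131 and 154 to 199 CPM. The defining alpha-defensins were scarce. Together 12 defensin genes gave 6.16, 7.20 and 14.4 CPM in wild type and 15.2, 53.0 and 25.5 CPM in mutant replicates 1, 2 and 3, and Defa23 and Defa35 had no read in any library. Small intestine genes had a median of 0.83 over 18 tested genes, none past the test. The part of these cell types in the levels of Itln1, Retnlb, Ang4, Reg4, Pla2g2a and Lyz1 was not tested.

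**Figure D5:**
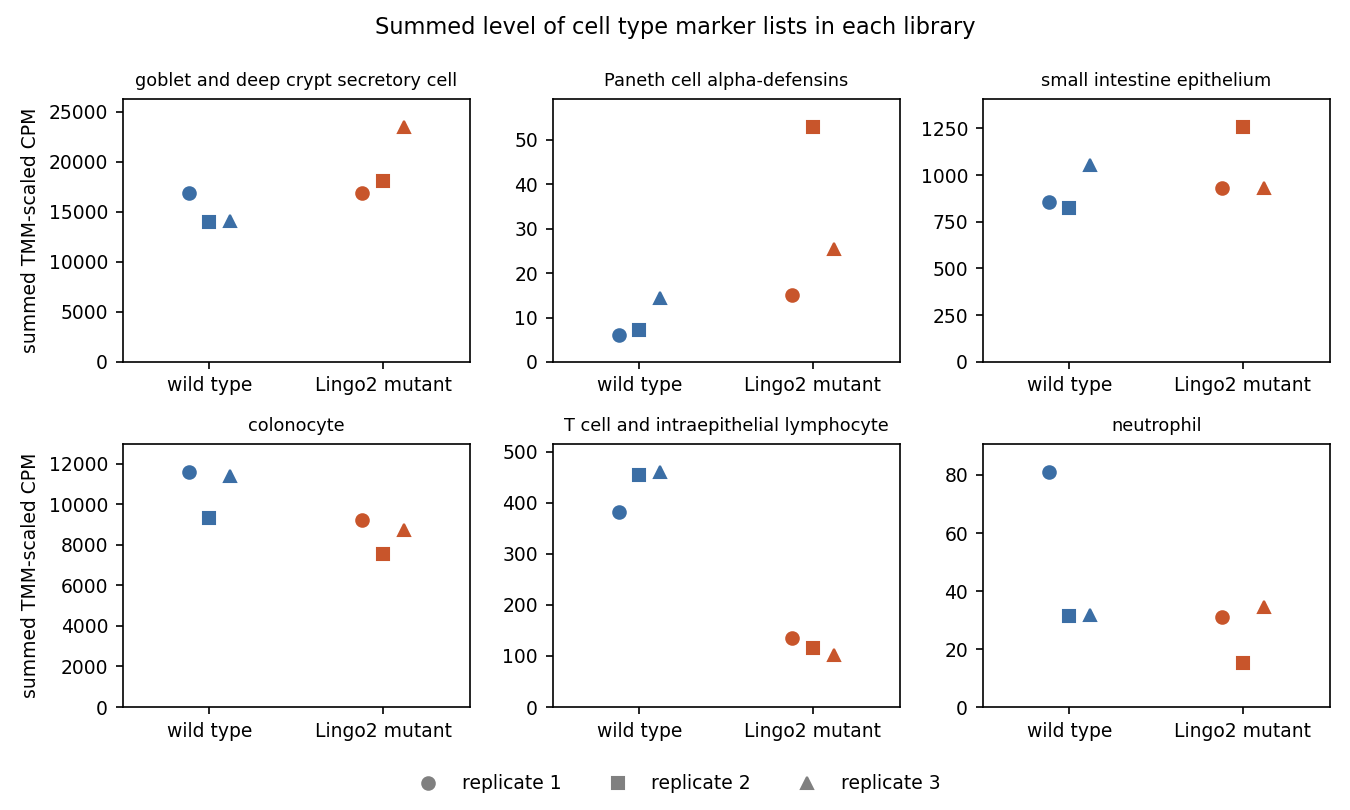
Summed TMM-scaled CPM of 6 marker lists in each library, on linear axes from 0, with wild type in blue and mutant in orange. The goblet list and the 12 defensins sit higher in every mutant library and the colonocyte list lower, all 3 by a narrow margin between the nearest libraries. The T cell list sits lower in every mutant library, and the small intestine and neutrophil lists overlap.

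Other cell lists gave the context of the fraction, to be read beside 1.04% of all tested genes called higher and 1.52% lower. Colonocyte genes, to which Lypd8 belongs by its known site, had all 16 log2 fold changes below 0 and none past the test (median −0.31), with sums of 9332 to 11590 CPM (wild type) and 7527 to 9223 CPM (mutant). T cell and intraepithelial lymphocyte genes fell in 15 of 16 tested members (median −1.83), for example Cd3g (−1.99 ± 0.13) and Cd7 (−2.08 ± 0.13). Macrophage and dendritic cell genes fell in 4 of 15, Itgax, Tyrobp, Fcer1g and Ccr2, with a median of −0.12. Another 5 of the 15 had log2 fold changes above 0 and did not pass. They were C1qa (0.32 ± 0.27), C1qb (0.31 ± 0.28), C1qc (0.29 ± 0.26), Cd14 (0.14 ± 0.16) and Adgre1 (0.05 ± 0.27). None of 4 tested neutrophil genes passed (median −1.04), with S100a9 at −1.30 ± 0.42 and S100a8 at −1.25 ± 0.56. Most of the sum of this list was Ly6g, at 43.9 ± 28.9 and 24.4 ± 9.96 CPM, which overlapped between genotypes. The granule genes Elane and Mpo had no read, and Lcn2, also on this list, was nearly absent. In the list of pancreatic genes Clps rose (1.90 ± 0.33, edgeR adjusted p = 0.0349) among 4 tested, with 7 of 16 listed genes at 0 in all libraries, among them Prss1, Pnlip and Amy2b. Connective tissue and vessel genes had Vwf higher (0.96 ± 0.18) and Mfap5 lower (−1.75 ± 0.39) among 11 tested (median −0.70).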

How the data were processed

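The authors trimmed reads with Trimmomatic 0.39, aligned them with STAR to GRCm38 and counted them with HTSeq, per the submitters' processing notes. The library kit was stranded and removed ribosomal RNA, per the labels' protocols. The sources used here do not give the annotation release or strand setting. The deposited count table holds raw read counts per gene, and its 5 summary lines were left out. The authors' deposited DESeq2 table holds a normalized signal (counts times 1 factor per library in 100% of values, relative tolerance 1e-06), log2 fold changes with errors, a test score and p-values.

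Counts of all 6 libraries were fitted with edgeR 4.0.16 in R 4.3.3 (filterByExpr, TMM factors, robust quasi-likelihood F test on genotype, Benjamini-Hochberg adjustment over 16757 genes, threshold 0.05). Each standard error is the absolute log2 fold change over the root of its F value. The script was tested on simulated data. Annotation was GENCODE M21 (GRCm38), which held 45229 of 46078 rows. Replicate numbers are shared between genotypes, and nothing in the labels says that they pair libraries.

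The 10 genes and the 14 comparison lists were chosen with earlier results of these data known, and no p-value was adjusted over a list alone. Genes named from a list were its called genes, up to 4 by adjusted p, or the 2 smallest p where none was called. Paralogs and the nearest patterns (mean log2 CPM of at least 1, prior count 2) were also named, and 1 gene that this rule takes is not reported here. Mptx1, Mptx2, Nos2, Duox2, Duoxa2, Dmbt1, Muc2, Clca1, Fcgbp, Tff3, Gsdmc2, Pla2g5 and Il22ra1 were chosen after their values were seen. So were the cytokines, the defensins and the other genes in the heat map that are not paralogs. Alternatives were DESeq2 1.42.0, limma 3.58.1 voom, other scalings and filters, a replicate block and leaving out each library.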

Additional observations from a re-analysis of the deposited data

How the results depend on the processing

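All 9 tested genes of the set kept the sign of their log2 fold change under all 15 alternatives run. Their count of called genes, 2, became 5 with dispersions that were not robust, 5 with limma voom and 6 with the DESeq2 Wald test, and ranged from 1 to 3 with 1 library left out. The count over all genes, 430, became 1493 with no filter and 655 with DESeq2, and with 1 library left out it was 174 (mutant replicate 2) to 674 (wild type replicate 3). The cause was not tested. The number with groups that do not overlap, 5, was 6 with CPM of the deposited totals, which added Lyz1, and 5 to 7 with 1 library left out. Added as lower were Reg3b without wild type replicate 1, Lypd8 and Lcn2 without wild type replicate 2, and Lcn2 without mutant replicate 3. Added as higher were Reg3g and Lyz1 without wild type replicate 3, and Lyz1 without mutant replicate 1. Smaller groups separate more easily, and the share over all genes was not computed for these settings. With a replicate block 360 genes and 3 of the set were called, Reg4 being added (edgeR adjusted p = 0.0336). The deviations of same-numbered libraries from their group means correlated at −0.126, 0.128 and −0.022 across genes. Not every library correlated best with its own number. With 3 libraries per group, deviations from a group mean are tied to each other, so these values cannot decide whether the libraries were paired. Depth limits Lcn2, Pla2g2a and Mptx2, which had 11, 242 and 51 reads in all.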

Other observations

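The Reg3b and Reg3g levels overlapped between genotypes, but their ratio within a library did not. Reg3b gave 4.53, 5.64 and 3.79 reads per Reg3g read in wild type replicates 1, 2 and 3 and 2.58, 1.97 and 1.90 in the mutant replicates. The mean ratio was 4.65 ± 0.928 (SD, n = 3) in wild type and 2.15 ± 0.376 in mutant libraries. This ratio was chosen after its values were seen and was not tested. Because library scaling cancels in it, it does not depend on the normalization.

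Genes for making microbicidal oxidants did not pass. Nos2, the inducible nitric oxide synthase, was at 14.2, 9.88 and 6.22 CPM in wild type and 24.0, 20.6 and 24.1 CPM in the mutant replicates (log2 fold change 1.19 ± 0.27, edgeR adjusted p = 0.0795). All 3 mutant values of Nos2 exceeded every wild type value. Duox2 was at 620 ± 145 and 852 ± 133 CPM and overlapped between genotypes, as did its maturation factor Duoxa2. Dmbt1, a secreted scavenger receptor that binds bacteria, was lower in all 3 mutant libraries, at 2527 ± 324 and 1944 ± 152 CPM, and did not pass (−0.38 ± 0.15, edgeR adjusted p = 0.197).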
